A study of Homo sapiens with 12 samples.

Results

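The azurophil granule protein genes examined here are MPO, ELANE, PRTN3, AZU1, CTSG and LYZ, 6 of 19970 protein-coding genes of GENCODE release 44. They were chosen by name and not by a measured value, though with earlier results of these data known. Peaks were taken in each gene body and within 50 kb of the canonical start site. AZU1, PRTN3 and ELANE lie next to each other on chromosome 19 and their windows overlap, so they were treated as 1 locus, which left 4 windows: 100.001 kb each for MPO, CTSG and LYZ, and 124.467 kb for the AZU1-PRTN3-ELANE locus.

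The measurement was chromatin immunoprecipitation and paired-end sequencing of H3K4me2, a histone modification found at active and poised promoters and enhancers. The cells were U-937, an established human myelomonocytic leukaemia line. They were treated for 24 h with the vehicle DMSO, with all-trans retinoic acid (ATRA, the ligand of the retinoic acid receptors) at 0.1 µM, with Corin at 0.1 µM, or with both at 0.1 µM each (ATRA+Corin). Corin is a synthetic dual inhibitor of the demethylase LSD1 and the deacetylases of the CoREST complex; LSD1 removes methyl groups from H3K4me1 and H3K4me2. Each treatment had 2 H3K4me2 libraries and 1 input library, 12 libraries in all, and the values analysed were 4 deposited peak lists, 1 per treatment. No list gives a value per library, so none of the differences below has a replicate error, a test or a p-value, and they describe these 4 lists. All groups are the same line, nothing in the labels says that the 2 libraries came from separate cultures, and a mark present in fewer cells cannot be told apart from a weaker mark in every cell.

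Azurophil, or primary, granules are the first granules that a developing neutrophil makes, at the promyelocyte stage. Their genes are transcribed in granulocyte and monocyte progenitors, and most of them are switched off as the cells mature. MPO encodes myeloperoxidase, which makes hypochlorous acid from hydrogen peroxide. ELANE, PRTN3 and CTSG encode the serine proteases neutrophil elastase, proteinase 3 and cathepsin G, and AZU1 encodes azurocidin, an antimicrobial relative of these proteases that has lost its catalytic activity. LYZ encodes lysozyme, which cuts the peptidoglycan of bacterial cell walls; unlike the others it is also made in quantity by mature monocytes and macrophages.

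The DMSO list held 65172 peaks and the ATRA list 66385, and the lists with Corin were longer, with 73997 peaks for Corin alone and 83969 for the combination. Values recovered from the deposited fold and p of 600 peaks drawn per list gave a lowest background of 2.91, 2.96, 3.20 and 3.49 H3K4me2 fragments, in the same order. This background was highest for the combination list, at 1.20 times DMSO. It is 1 value per list, a guide to depth and not a count of reads or the input at a given locus. Among the 30000 strongest peaks of each list, 16 to 22 numbers in the running peak names were absent, and where those peaks would lie is unknown. As a check of the label, 8 of 8 myeloid marker genes had a peak within 1 kb of the start site in each list, compared with 1 of 9 marker genes of other cell types, the early B-cell factor gene EBF1. The share of all genes with a peak within 1 kb was 61.3%, 61.5%, 61.5% and 62.3%.

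Promoter sequences were matched by symbol for 3 of the 6 genes, CTSG, AZU1 and PRTN3, and are shown because these start sites lie under H3K4me2 peaks in each list. Each sequence runs from 250 bases before to 50 bases after the start site (RefSeq, GRCh38.p14), 5′ to 3′ on the gene's strand, and capitals mark letters that match a motif of a myeloid transcription factor on either strand.
CTSG, chr14:24576201-24576500, minus strand: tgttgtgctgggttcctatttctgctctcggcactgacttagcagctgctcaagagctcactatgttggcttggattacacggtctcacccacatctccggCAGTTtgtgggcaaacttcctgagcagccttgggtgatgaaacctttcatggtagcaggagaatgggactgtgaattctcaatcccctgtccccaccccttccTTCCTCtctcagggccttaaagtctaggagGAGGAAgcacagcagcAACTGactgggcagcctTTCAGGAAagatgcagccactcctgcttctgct
AZU1, chr19:827587-827886, plus strand: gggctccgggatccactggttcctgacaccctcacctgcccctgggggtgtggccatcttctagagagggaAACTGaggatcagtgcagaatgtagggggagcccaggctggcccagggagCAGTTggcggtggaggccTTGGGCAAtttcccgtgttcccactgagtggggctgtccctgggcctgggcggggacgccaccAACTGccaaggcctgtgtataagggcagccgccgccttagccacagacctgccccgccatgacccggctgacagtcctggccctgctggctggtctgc
PRTN3, chr19:840749-841048, plus strand: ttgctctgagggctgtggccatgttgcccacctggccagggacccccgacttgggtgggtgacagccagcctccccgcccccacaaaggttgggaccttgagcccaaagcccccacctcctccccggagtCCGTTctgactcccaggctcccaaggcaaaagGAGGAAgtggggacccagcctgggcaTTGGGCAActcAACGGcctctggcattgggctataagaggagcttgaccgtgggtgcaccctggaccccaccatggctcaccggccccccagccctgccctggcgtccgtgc
The motifs searched were RUNX (TGTGGT), C/EBP (TTNNGNAA), PU.1/ETS (GAGGAA), MYB (AACNG) and the retinoid receptor half-site (AGGTCA). AZU1 and PRTN3 shared the same C/EBP match, TTGGGCAA, which began 111 bases before the AZU1 start site and 62 bases before that of PRTN3. The C/EBP match of CTSG, TTCAGGAA, began 17 bases after its start site. CTSG had 2 PU.1/ETS matches, at -46 and -16, PRTN3 had 1, at -88, and AZU1 had none. MYB letters matched at 2 places in CTSG, 3 in AZU1 and 2 in PRTN3. RUNX and half-site letters matched in none of these 3 windows. Of 27305 promoters of the same length, 37.2% held the C/EBP letters, 27.6% the PU.1/ETS letters, 77.1% the MYB letters, 13.1% the RUNX letters and 13.9% the half-site, so the C/EBP and MYB letters are common and a match is a description of the sequence only.

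The start sites of AZU1, PRTN3, ELANE, CTSG and LYZ carried H3K4me2 in vehicle-treated cells, and that of MPO did not. A peak lay over the start site of 5 of the 6 genes with DMSO, 5 with ATRA, 5 with Corin and 4 with ATRA+Corin. Over all protein-coding genes the share was 47.3% with DMSO, 48.1% with ATRA, 38% with Corin and 38% with ATRA+Corin. The start site that left the count with ATRA+Corin was that of LYZ, 22 bp outside the nearest peak. Within 1 kb of the start site, the same count was 5 of 6 in each of the 4 lists, with MPO the exception each time.

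**Figure D1:**
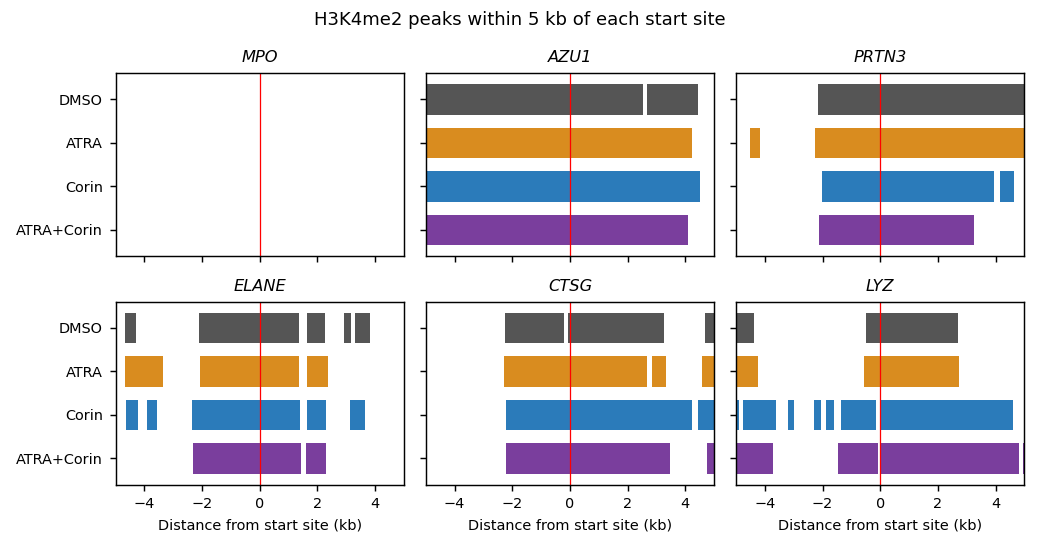
H3K4me2 peaks (bars) in the 4 lists within 5 kb of the start site (red line) of each of the 6 genes; the horizontal axis is the distance in kb along the direction of transcription. MPO is empty in each list, AZU1 is covered almost throughout, and the LYZ peaks of the Corin and ATRA+Corin lists run to 4609 and 4808 bp, compared with 2704 bp with DMSO.

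The AZU1-PRTN3-ELANE locus, on chromosome 19 of GRCh38, was the most densely marked of the 4 windows. AZU1 (chr19:825097-832018, plus strand, canonical start 827837) and PRTN3 (chr19:840999-848175, plus strand) have start sites 13162 bp apart, and the ELANE start site (852303, in the gene chr19:851014-856247, plus strand) lies 11304 bp beyond that of PRTN3. Peaks covered 41.4 kb of the window with DMSO, 43.1 kb with ATRA, 42.7 kb with Corin and 39.4 kb with ATRA+Corin, which is 33.3%, 34.7%, 34.3% and 31.6% of its length. The median gene window was covered over 4.96%, 5.63%, 6.37% and 7.13% of its length. In the DMSO list the AZU1 window was covered more densely than 99.9% of gene windows, PRTN3 more than 99.8% and ELANE more than 99.6%; with ATRA+Corin these positions were 98.5%, 98.5% and 97.9%.

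AZU1 lay under 1 of the broadest peaks of each list. The peak over its start site was 9931 bp wide with DMSO, 11782 bp with ATRA, 12269 bp with Corin and 11876 bp with ATRA+Corin, and at most 0.110% of the peaks of any of these lists were wider. Its upstream edge lay between -7785 and -7409 bp from the start site, and it also covered the start site of PLPPR3, a brain-enriched phospholipid phosphatase-related gene on the opposite strand. With DMSO it ended 2521 bp into AZU1 and a second peak of 1756 bp took up the rest, and in the 3 treated lists a single peak ran 4090 to 4515 bp past the start site. The AZU1 gene body was covered over 97.8%, 100%, 100% and 98.7% of its length, exons 1 to 5 included. The summit of this peak was not at the same place in each list: it lay 293 bp past the AZU1 start site with DMSO and 307 bp with ATRA, and at -4144 bp with Corin and -4139 bp with ATRA+Corin, between AZU1 and PLPPR3. At these summits 256 fragments were counted with DMSO (95% Poisson interval 226 to 289), 339 with ATRA (304 to 377), 168 with Corin (144 to 195) and 274 with ATRA+Corin (243 to 308). Set against the lowest background of its own list, that was 87.8, 114, 52.5 and 78.4 times. The deposited fold over input was 44.2, 49.9, 16.0 and 52.6. The intervals cover counting error only and not the difference between libraries.

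PRTN3 had a broad peak over its start site that ended earlier in the Corin-treated lists. The peak reached 5748 bp past the start site with DMSO and 5765 bp with ATRA, compared with 3939 bp with Corin and 3237 bp with ATRA+Corin, while its upstream edge stayed between -2269 and -2015 bp. Its width was 7890, 8035, 5955 and 5372 bp. The share of the PRTN3 gene body under peaks was 85.5% with DMSO, 90.7% with ATRA, 77.2% with Corin and 45.1% with ATRA+Corin. With Corin alone, exon 4 was still under a separate weak peak (22 fragments, 13.8 to 33.3). The last exon, exon 5, lay in a region (chr19:847626-848937) that held a peak with DMSO, ATRA and Corin and none with ATRA+Corin. That region was weak wherever it was called: its −log10 q, which the authors' caller gave within each list and which is not compared between lists here or below, was 3.71, 4.21 and 3.94, with 25 fragments at the DMSO summit (16.2 to 36.9). The summit of the start-site peak lay 128 bp past the PRTN3 start site with DMSO, 225 bp with Corin and 142 bp with ATRA+Corin, and held 207, 165 and 273 fragments, or 71.01, 51.6 and 78.1 times the background. With ATRA the summit lay elsewhere, 2482 bp past the start site, with 305 fragments, or 103 times the background. The deposited fold over input was 45.6, 42.2, 34.2 and 43.4 in the order DMSO, ATRA, Corin and ATRA+Corin.

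ELANE kept a compact peak of nearly constant outline over its start site and exons 1 to 3. It was 3489, 3451, 3742 and 3727 bp wide in the order DMSO, ATRA, Corin and ATRA+Corin, and its edges moved by less than 300 bp. Its summit lay at -1470, -1476, -1046 and -1507 bp from the start site and held 224, 293, 176 and 273 fragments, or 76.8, 98.9, 55.04 and 78.1 times the background. The deposited fold over input was 27.5, 40.6, 33.3 and 29.9, so Corin lay above DMSO by fold and below it by fragments. A second, intronic peak between 1618 and 2353 bp was present in each list. Exons 4 and 5 of ELANE lay in a weak region (chr19:855214-856111) that was called with DMSO (−log10 q of 4.07 for the stronger of 2 peaks) and with Corin (1.71), and not with ATRA or ATRA+Corin. The share of the ELANE gene body covered was 76.7%, 64.7%, 73.8% and 65.2%. The 3 genes thus held their start-site peaks in each list, and the regions inside them that only some lists held lay in the 3′ parts of PRTN3 and ELANE.

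**Figure D2:**
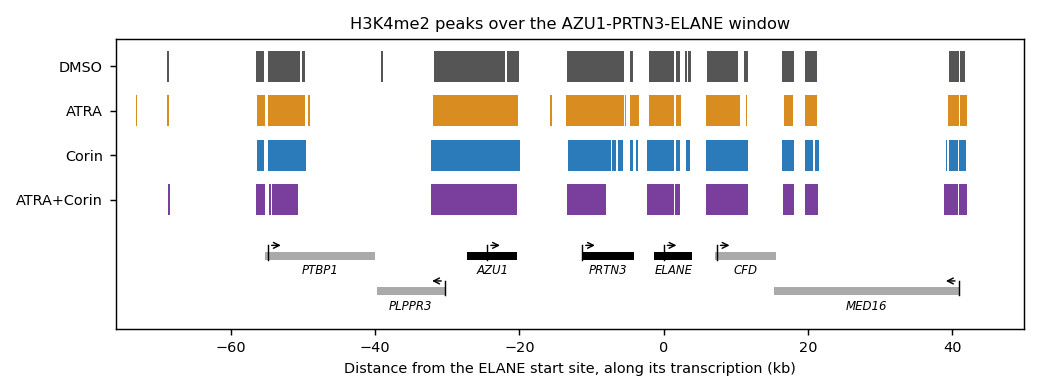
Peaks of the 4 lists (bars) across the AZU1-PRTN3-ELANE window, with genes drawn below (the 3 granule genes in black, others in grey, arrows at start sites); the horizontal axis is the distance from the ELANE start site in kb. The broad AZU1 peak is present in each list, and the PRTN3 peak is shorter on its right side with Corin (5955 bp) and ATRA+Corin (5372 bp) than with DMSO (7890 bp).

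Of 19 regions in this window, 11 were held by each of the 4 lists. With ATRA, 4 regions were gained and 2 lost against DMSO; with Corin, 0 were gained and 2 lost; with ATRA+Corin, 0 were gained and 3 lost. The lost regions were weak, with a −log10 q of at most 4.07 in the DMSO list, and 1 of the 4 regions gained with ATRA had a −log10 q of at least 5 (8.20, at -73223 to -72978 bp from the ELANE start site). The combination had 3.36 kb newly covered and 5.44 kb no longer covered relative to DMSO, a ratio of covered length of 0.950, and its ratio to ATRA was 0.912 and to Corin 0.922. The ratio of the combination to DMSO was 0.990 when each peak needed a −log10 q of 5 or more, and 0.943 with equal numbers of peaks. It was 0.897 with a window of 10 kb either side and 1.02 with 100 kb. With equal numbers of peaks the ratio of Corin to DMSO was 0.991 in place of 1.03.

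CTSG (chr14:24573518-24576250, minus strand, 2733 bp) was covered over 100%, 98.1%, 100% and 100% of its gene body in the order DMSO, ATRA, Corin and ATRA+Corin. With DMSO the mark around its start site was split: a peak of 3337 bp began at -72 bp from the start site, and a second peak of 2042 bp ended at -197 bp, leaving 124 bp without a peak in the part of the promoter printed above. In the 3 treated lists a single peak bridged this gap. It ran from -2275 to 2679 bp with ATRA, from -2215 to 4245 bp with Corin and from -2209 to 3472 bp with ATRA+Corin, so its upstream edge was almost the same in each and its far edge was not. The summit of the peak over the start site moved as well, lying 764 bp past the start site with DMSO, 1692 bp with ATRA, 1967 bp with Corin and 673 bp with ATRA+Corin. It counted 121 fragments with DMSO (100 to 145), 173 with ATRA (148 to 201), 113 with Corin (93.1 to 136) and 167 with ATRA+Corin (143 to 194), which is 41.5, 58.4, 35.3 and 47.8 times the background. The deposited fold over input was 26.9, 39.5, 17.3 and 30.2, in the same order of lists.

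Over the whole CTSG window, peaks covered 12.2, 12.5, 15.3 and 13.2 kb, and 5 of its 7 regions were held by each of the 4 lists. The other 2, between 41387 and 42246 bp from the start site, were in the DMSO list only, with −log10 q of 1.56 and 2.96. The ratio of covered length to DMSO was 1.03 with ATRA, 1.26 with Corin and 1.08 with ATRA+Corin. No region was gained in this window with any of the 3 treatments. Of the granule and mast cell protease genes in the same cluster, GZMH and GZMB encode granzymes of cytotoxic lymphocytes. Their start sites were under no peak in any list. A peak over exons 2 to 5 of GZMH was nevertheless present in each list, 1153 to 1287 bp from its start site. The nearest peak to the GZMB start site was 25398 to 25583 bp away. CMA1, which encodes mast cell chymase, had its start site under a peak in each of the 4.

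LYZ (chr12:69348381-69354234, plus strand) had the largest increase in covered length of the 4 windows with Corin, and again with ATRA+Corin. Peaks covered 12.4 kb of its window with DMSO, 13.8 kb with ATRA, 22.6 kb with Corin and 20.6 kb with ATRA+Corin. The ATRA list was close to DMSO, and both lists with Corin lay well above it. The number of peaks was 8, 7, 19 and 16. Relative to DMSO, 10.7 kb were newly covered and 0.443 kb no longer covered with Corin (a ratio of 1.82), and 8.53 kb and 0.356 kb with ATRA+Corin (1.66); with ATRA the ratio was 1.11. Under the alternative windows, thresholds and equal peak numbers, the ratio lay between 1.59 and 1.86 for Corin and between 1.48 and 1.66 for the combination.

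Part of this increase was within LYZ itself. With DMSO a peak ran from -506 to 2704 bp around the start site and covered 46.2% of the gene body, and with ATRA it ran from -549 to 2720 bp and covered 46.5%. With Corin the mark reached 4609 bp and covered 78.7% of the gene body, and with ATRA+Corin a peak from 22 to 4808 bp, with a weak separate peak of 165 bp beyond it, covered 84.6%. In the same 2 lists the start site was at the edge of a gap. Corin left 138 bp without a peak, between -142 and -3 bp, and ATRA+Corin left 102 bp, between -81 and 22 bp, with a separate upstream peak of 1231 bp in the former and 1376 bp in the latter. Both lists without Corin had 1 continuous peak there. The share of all start sites under a peak was likewise 38% in the lists with Corin and 47.3% and 48.1% in those without.

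The summits moved with the outlines. The summit of the LYZ peak lay 829 bp past the start site with DMSO and 809 bp with ATRA, and at 2560 bp with Corin and 2548 bp with ATRA+Corin. These summits held 83 fragments with DMSO (66.1 to 103), 139 with ATRA (117 to 164), 85 with Corin (67.9 to 105) and 113 with ATRA+Corin (93.1 to 136). Scaled to each list's lowest background these were 28.5, 46.9, 26.6 and 32.3 times, an order that differed from that of covered lengths. The deposited fold over input was 15.9, 13.8, 18.4 and 21.9. By fold, both lists with Corin lay above both without, as for covered length, so the order of summit heights depended on the scale used.

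Upstream of LYZ, the DMSO list held 3 regions, ATRA 4, Corin 11 and ATRA+Corin 7. Of the 9 regions gained with Corin, 8 lay upstream of the start site, 3 were also held with ATRA+Corin and 1 was held with ATRA. Most were weak: 1 of the 9 had a −log10 q of at least 5, and they spanned 1.71 to 7.84. The ATRA+Corin list gained 5 regions, of which 2 had a −log10 q of at least 5. These 2, at chr12:69321257-69321960 and chr12:69324799-69325585, lay from -27124 to -26421 bp and from -23582 to -22796 bp; each had a −log10 q of 10.3 with ATRA+Corin, 3.19 and 3.92 with Corin, and no peak with DMSO or ATRA. No region of the LYZ window was lost in any of the 3 treated lists. Both lists with Corin were also longer than the DMSO list, and 54% of protein-coding genes gained at least 1 region with Corin.

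**Figure D3:**
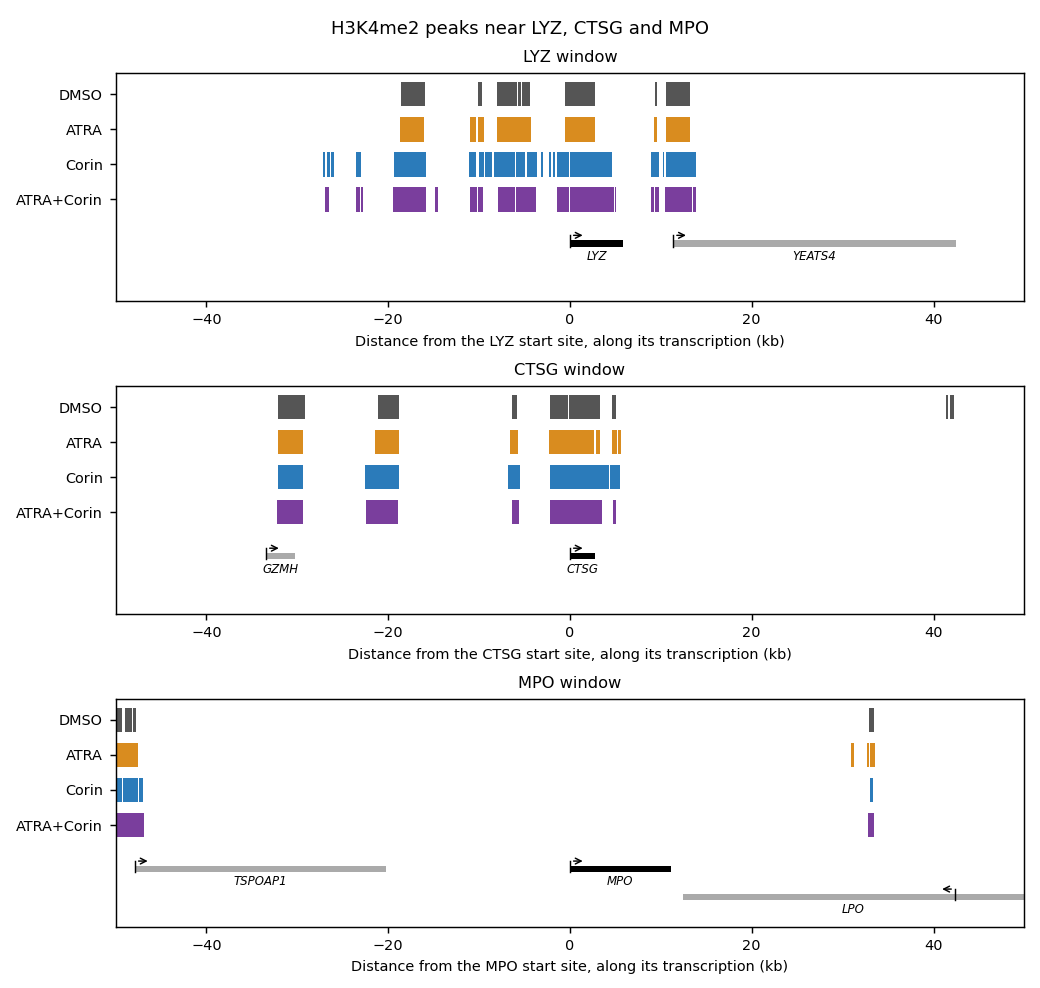
Peaks of the 4 lists (bars) in the LYZ, CTSG and MPO windows, from 50 kb before to 50 kb after each start site along the direction of transcription (kb), with protein-coding genes below. LYZ has 19 peaks with Corin and 16 with ATRA+Corin, compared with 8 with DMSO. The peak over the CTSG start site is 3337 bp wide with DMSO and 6461 bp with Corin, and the centre of the MPO window is empty in each list.

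MPO (chr17:58269855-58280935, minus strand, 11081 bp) had no peak in its gene body or within 5 kb of its start site in any list. The nearest peak was 32901 bp away with DMSO, 30868 bp with ATRA, 33003 bp with Corin and 32741 bp with ATRA+Corin, each time downstream, inside the neighbouring lactoperoxidase gene LPO. The −log10 q of the nearest peak, each within its own list, was 13.2, 8.26, 4.87 and 6.74. The ATRA peak among these lay in a different region from the others. In the region of the others (chr17:58247360-58248269), ATRA also held a peak, with a −log10 q of 26.7. The strongest summits there held 35 fragments with DMSO, 48 with ATRA, 27 with Corin and 29 with ATRA+Corin, or 12.0, 16.2, 8.44 and 8.30 times the background. Of all protein-coding genes, 17.7% had their nearest peak at least as far away with DMSO, 17.5% with ATRA, 16.6% with Corin and 15.4% with ATRA+Corin. The region that ATRA gained in this window was the one at 30868 to 31233 bp, with 25 fragments at its summit (16.2 to 36.9).

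The strong peaks of the MPO window were at its far upstream edge, at -46825 bp and beyond, in a region (chr17:58327760-58346694) that reaches past the window. It covers the start sites of TSPOAP1, whose product binds the translocator protein TSPO, and of MIR142HG, the host of a microRNA of blood cells. Because so little of the window was covered, 2355, 3694, 3152 and 3836 bp in the 4 lists, a change of about 1 kb gave a ratio of covered length to DMSO of 1.57 with ATRA, 1.34 with Corin and 1.63 with ATRA+Corin. No covered base behind these ratios lay within 30 kb of the MPO start site. The related peroxidase genes LPO and EPX, the latter encoding eosinophil peroxidase, also had no start site under a peak in any list.

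Set against the median of all protein-coding genes, the 6 genes lay on both sides of it in each treated list. Each of the 6 had a ratio of covered length to DMSO above 1 with ATRA and with Corin. With ATRA+Corin the 6 ratios lay on both sides of 1. The median ratio of covered length to DMSO over the 6 genes was 1.03 with ATRA, 1.15 with Corin and 1.02 with ATRA+Corin, and over all genes 1.09, 1.23 and 1.36. Over the 4 windows, with the 3 neighbours counted once, it was 1.08, 1.30 and 1.35. The ratio was at least 1.5 in 1 of 6 genes with ATRA (MPO; 6.47% of all genes), 1 with Corin (LYZ; 17.4%) and 2 with ATRA+Corin (LYZ and MPO; 35.4%), and at most 1/1.5 in none of them (1.44%, 1.44% and 0.904% of all genes). For the combination, 75.9% of genes had a lower ratio than LYZ and 13.8% a lower ratio than CTSG.

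AZU1, PRTN3 and ELANE lay at the low end for the combination, with ratios of 0.923, 0.921 and 0.956 to DMSO; 3.40%, 3.33% and 4.62% of all genes had a lower ratio. The 207 genes with at least 30% of their window covered with DMSO, these 3 included, were set beside them. This set was added after the values were seen, and it is defined by DMSO coverage, the denominator of the ratio. The median ratio of the 207 genes was 1.15, and 0.966%, 0.483% and 1.45% of them had a lower ratio than AZU1, PRTN3 and ELANE. With Corin alone the ratios of 1.03, 1.03 and 1.04 stood against a median of 1.10 in the same 207 genes, with 26.1%, 29.95% and 33.8% below, and with ATRA alone 1.03, 1.03 and 1.04 stood against 1.03. The 3 windows overlap, so these are not 3 separate observations. For the whole locus, the ratio of the combination to DMSO was 0.990 when each peak needed a −log10 q of 5 or more. It was 1.02 with a window of 100 kb, and the positions among genes were not recomputed under these settings.

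**Figure D4:**
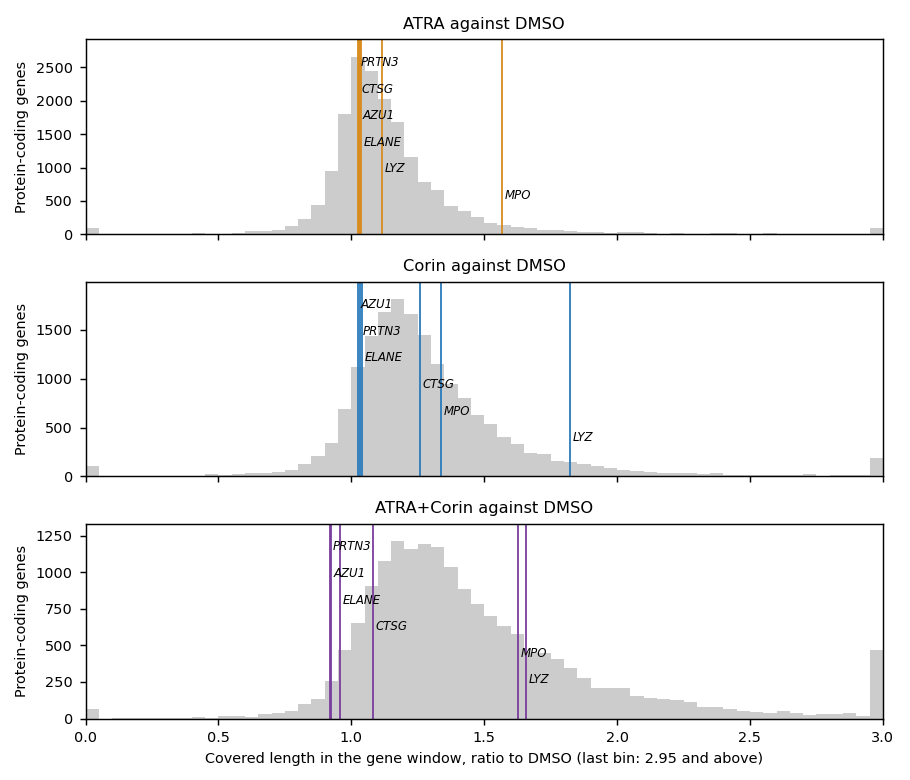
Distribution over protein-coding genes (grey bars, number of genes) of the ratio of covered length in the gene window to DMSO, for ATRA, Corin and ATRA+Corin, with the 6 granule genes as vertical lines. With ATRA+Corin, AZU1, PRTN3 and ELANE lie at 0.923, 0.921 and 0.956, below the median of 1.36, and LYZ lies at 1.66.

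Gained and lost regions were also counted per gene. At least 1 region was gained by 5 of the 6 genes with ATRA (42% of all genes), by LYZ alone of the 6 with Corin (54%) and by LYZ alone of the 6 with ATRA+Corin (67.8%). At least 1 was lost by 4 genes with ATRA (24.8%), 4 with Corin (25.8%) and 4 with ATRA+Corin (20.3%), in each case AZU1, PRTN3, ELANE and CTSG. Since the 3 neighbours share their windows, these 4 genes stand for 2 loci. In the same way the 5 genes with a gained region under ATRA stand for 3 loci: MPO, AZU1-PRTN3-ELANE and LYZ. Over the 4 windows together, 6 regions were gained and 4 lost with ATRA, 9 and 4 with Corin, and 5 and 5 with ATRA+Corin, and 24 of the 46 regions were held by each of the 4 lists. All of the lost regions had a −log10 q under 5 in the DMSO list. Of the gained regions, 3 with ATRA, 1 with Corin and 2 with ATRA+Corin had a −log10 q of at least 5 in their own list.

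**Figure D5:**
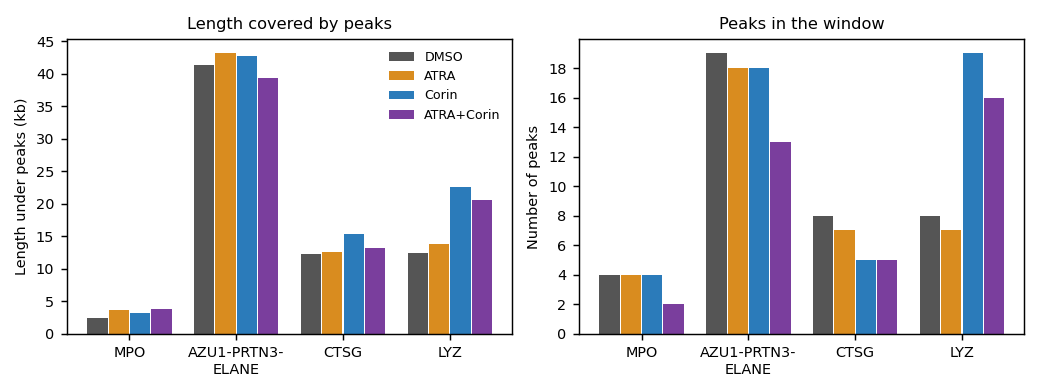
Length under peaks in kb (left) and number of peaks (right) in each of the 4 windows, 1 bar per list, with no error bar because each treatment has 1 list. The AZU1-PRTN3-ELANE window has 39.4 to 43.1 kb under peaks in the 4 lists, and LYZ rises from 12.4 kb with DMSO to 22.6 kb with Corin.

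The combination was also set against each single agent. Against ATRA, LYZ gained 4 regions and lost 0 (a ratio of 1.49, with at least 1 gained region in 63.2% of all genes). The AZU1-PRTN3-ELANE window gained 0 and lost 5 (at least 1 lost region in 21.6%). Of these 5, 1 had a −log10 q of at least 5 in the ATRA list, and the 4 regions that ATRA gained against DMSO were among them. Against Corin, LYZ gained 2 regions (at least 1 in 59% of all genes) and lost 6 (at least 1 in 28.7%), all of them with a −log10 q under 5, and its ratio was 0.909, and CTSG had a ratio of 0.859 with no region gained or lost. The ratio reached 1.5 in none of the 6 genes in either comparison (17.1% of all genes against ATRA and 6.57% against Corin) and was at most 1/1.5 in none (1.02% and 0.91%). The median ratio over all genes was 1.23 against ATRA and 1.09 against Corin. The combination list shares no library with either single-agent list. Both of these comparisons use the same combination list, as does that of ATRA+Corin with DMSO, and the comparisons with DMSO share the DMSO list.

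The placing of peaks within 10 kb of the start site was also compared in bins of 100 bp. The Jaccard index, the share of covered bins held in common, was 0.926 or higher for AZU1 between any 2 lists. For LYZ it was 0.910 between DMSO and ATRA, 0.486 between DMSO and Corin, 0.563 between DMSO and ATRA+Corin and 0.766 between the lists with Corin. For PRTN3 it was 0.842 between DMSO and ATRA, 0.847 between DMSO and Corin and 0.667 between DMSO and ATRA+Corin, and in the same order it was 0.843, 0.850 and 0.709 for ELANE, whose 10 kb take in most of PRTN3, and 0.849, 0.716 and 0.899 for CTSG. Over the 4 lists combined (800 bins), the genes most like ELANE were SLC19A1 (0.728) and RPL7A (0.683), those most like CTSG were PHF21A (0.764) and SLC16A6 (0.739), and those most like LYZ were H2AX (0.685) and RAB33A (0.681). MPO had no covered bin, as had 4745 genes (23.8%).

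Of 12 other genes for azurophil granule contents, their storage, processing and inhibition, 10 had the start site under a peak with DMSO (47.3% of all genes). The count was 10 with ATRA (48.1%), 9 with Corin (38%) and 7 with ATRA+Corin (38%). In each list 11 of the 12 had a peak within 1 kb (61.3%, 61.5%, 61.5% and 62.3% of all genes). PRSS57, a serine protease gene, was the exception among the 12. Their median ratio of covered length to DMSO was 1.14 with ATRA, 1.24 with Corin and 1.39 with ATRA+Corin, close to the medians of all genes. The ratio was at least 1.5 in 0, 3 and 4 of the 12 (6.47%, 17.4% and 35.4% of all genes). PSAP, which encodes the precursor of the saposins, had 8.48, 12.6, 13.7 and 26.7 kb under peaks in the order DMSO, ATRA, Corin and ATRA+Corin. SRGN, the proteoglycan that packs granule proteins, had 27.2, 38.2, 44.3 and 43.6 kb. CTSC, the peptidase that activates the granule serine proteases, had 5.62, 6.80, 9.97 and 10.9 kb, and BPI, a bactericidal granule protein, had 10.9, 12.5, 12.3 and 18.2 kb. These 4 are the genes whose ratio reached 1.5 with the combination. Of the 12, 11 had a ratio above that of CTSG (1.08), and PRSS57 had 1.06.

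Of 10 genes of granules that form later in neutrophil development, 2 had the start site under a peak with DMSO (47.3% of all genes). The count was 3 with ATRA (48.1%), 4 with Corin (38%) and 4 with ATRA+Corin (38%). MMP8, neutrophil collagenase, had the highest ratio of covered length to DMSO of these genes in each treated list: its nearest peak was 44079 bp away with DMSO and 2516 bp with ATRA, and its start site was under a peak with Corin and with ATRA+Corin. The length under peaks in its window was 0.282, 1.48, 3.97 and 7.01 kb. CAMP, the cathelicidin gene, and MMP9, a gelatinase gene, had covered start sites in each list. LTF and LCN2, which encode lactoferrin and lipocalin 2, had none in any list, and the nearest peak to the start site of CRISP3 was over 100 kb away in each. In the 8 of these genes with any DMSO coverage, the ratio was at least 1.5 in 1 with ATRA, 2 with Corin and 4 with ATRA+Corin (6.47%, 17.4% and 35.4% of all genes), with medians of 1.20, 1.34 and 1.51. It was at most 1/1.5 in 1, with Corin (1.44%): ARG1, which encodes arginase, had 0.381 kb under peaks with DMSO, 0.312 kb with ATRA, 0 kb with Corin and 0.330 kb with ATRA+Corin.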

How the data were processed

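H3K4me2 chromatin immunoprecipitation libraries of U-937 were grouped by treatment from the sample titles. The values analysed were 4 deposited peak lists, 1 per treatment; per the labels each treatment had 2 H3K4me2 libraries and 1 input, and the lists carry no value per library. Trimmomatic, Bowtie2, Picard, MACS2 and build hg38 are named in the submitters' processing notes, without roles, versions or parameters. The deposited score was 10 times the −log10 p, cut and capped at 1000. The deposited fold is a ratio over input at the summit, from the authors' peak caller. The deposited −log10 p and −log10 q came from the same caller. Each −log10 q describes a peak within its own list; where those of several lists stand in a sentence they are not compared. Fragments solved from fold and p are given side by side, without a test, and scaled to the lowest background of each list. That background is 1 value per list and not the input at a locus.

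Genes and exons came from GENCODE 44 (GRCh38, the same build), with coordinates counted from 1. Peaks of the 4 lists that overlapped by at least 1 bp or touched were merged into regions; a region was gained where the treated list held a peak and the reference none, and lost in the opposite case. Covered length is the length under peaks inside a window, and its ratio is treated over reference; genes with no covered base in the reference have no ratio. Whole H3K4me2 fragments at a summit were solved from fold (pseudocount 1) and −log10 p of a Poisson tail. They were solved to within 0.02 fragments in 100% of 600 peaks drawn per list, which left out the peaks of highest −log10 p. In the 4 windows 157 of 157 peaks were solved, with a slightly wider tolerance. The scaling to input was 0.610, 0.689, 0.660 and 0.575 for DMSO, ATRA, Corin and ATRA+Corin. Intervals on fragments are exact 95% Poisson intervals. The depth of single libraries is unknown. The merging, counting and fragment steps were tested on simulated data.

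The 6 genes, the gene lists, the markers and the motifs were chosen with earlier results of these data known, so counts over a list are descriptions. Named genes are the 6 members, genes whose start site lies in a window, the listed peroxidase, protease, azurophil and later granule genes, and for likeness the 2 genes with the highest Jaccard index. One listed marker of other cell types is not reported here. The 207 densely covered genes, the gap lengths and the summit positions were added after the values were seen. The alternatives tried were a strict −log10 q of 5 or more (for each peak, or only on the side with the peak), equal peak numbers, merging within 1 kb, 50% overlap of single peaks, windows of 10 and 100 kb, and start sites within 1 kb. No test was made, and no library could be left out, because each treatment has 1 list. Python 3.11.15, pandas 2.3.3, numpy 2.4.6, scipy 1.17.1 and matplotlib 3.10.9 were used.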

Additional observations from a re-analysis of the deposited data

How the results depend on the processing

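Of the values recomputed (142 over 34 results), ratios of covered length in single windows stayed on the same side of 1 in 72 of 75 cases, and counts of start sites under a peak stayed within 1.5 times. Net counts of regions (gained minus lost, all 4 windows) are small and did not keep their size; the cause was not tested. With ATRA against DMSO (2), the net count was 5 when each peak needed a −log10 q of 5 or more, 1 with equal peak numbers (65172 per list), 1 with merging within 1 kb, 4 with 50% overlap and 1 with a 10 kb window. With Corin against DMSO (5) it was 2 with the strict threshold for each peak, 1 with it on the side with the peak, 13 with 50% overlap and 8 with 100 kb, and it changed sign to -2 with equal peak numbers and -1 with merging. With ATRA+Corin against DMSO (0) it was 3, 2, -5, 1, 3, -1 and 3 with the strict threshold for each peak, on one side, equal peak numbers, merging, 50% overlap, 10 kb and 100 kb. With ATRA+Corin against ATRA (-2) it was 0 with the one-sided threshold, -6 with equal peak numbers and 0 with merging, and it changed sign to 2 with 50% overlap and 1 with 100 kb. With ATRA+Corin against Corin (-5) it was 0 with the one-sided threshold, -3 with equal peak numbers and -9 with 50% overlap, and it changed sign to 1 with the strict threshold for each peak and 2 with merging. The ratio of covered length crossed 1 for all windows with ATRA+Corin against ATRA at 10 kb (0.978, from 1.05), for CTSG in the same comparison at 10 kb (0.947), for the AZU1-PRTN3-ELANE window with Corin against DMSO at equal peak numbers (0.991) and for that window with ATRA+Corin against DMSO at 100 kb (1.02). The background was highest for ATRA+Corin (1.20 times DMSO), and the part of depth in these counts was not tested. No paired analysis was possible because each treatment has 1 pooled list whose columns carry no replicate; leaving out a replicate was not possible for the same reason.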

Other observations

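Some neighbours of the granule genes had their start site under a peak and others, such as MED16 and GZMH, had not in any list. The MED16 start site, 40884 bp from that of ELANE, nevertheless lay in a short gap between peaks. On the same scale, the peak before it ended at 40865, 40883, 40775 and 40812 bp with DMSO, ATRA, Corin and ATRA+Corin. The peak after it began at 41052, 41004, 40971 and 40940 bp. CFD, which encodes complement factor D and starts 7361 bp downstream of the ELANE start site, lay under a peak of 4339 bp with DMSO, 4764 bp with ATRA, 5753 bp with Corin and 5758 bp with ATRA+Corin. PTBP1, an RNA-binding splicing regulator gene, had its start site under a peak with DMSO, ATRA and Corin and not with ATRA+Corin. That start site lies at -54851 bp from the ELANE start site, and with ATRA+Corin a peak began at -54784 bp. YEATS4, a chromatin reader gene 11362 bp downstream of the LYZ start site, was under a peak in each list. The 8 myeloid marker genes had a median ratio of covered length to DMSO of 1.33 with ATRA, 1.30 with Corin and 1.77 with ATRA+Corin. The medians over all genes were 1.09, 1.23 and 1.36. With the combination 6 of the 8 reached 1.5, as did 35.4% of all genes. ITGAM, an integrin subunit of mature myeloid cells, had ratios of 1.46, 2.00 and 2.35.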
